A study of Mus musculus with 20 samples.

Results

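The SMP libraries of this mouse muscle series were compared across all genes, DKO against WT. The 4 libraries were taken by their titles, 2 of SMP DKO and 2 of SMP WT, out of 20 libraries in all. SMP commonly stands for skeletal muscle progenitors, and the cells came from the gastrocnemius, quadriceps and tibialis anterior muscles. The labels state neither which genes DKO stands for nor how the cells were sorted, the age or sex of the mice, or whether animals were pooled. DKO is taken here, from background knowledge and as an assumption, to mean the double knockout of Des, the desmin gene, and Syne1, the gene of nesprin 1. The other libraries, used for comparison, were 4 each of FAP DKO, Misc DKO, FAP WT and Misc WT, where FAP commonly stands for fibro/adipogenic progenitors and Misc is the labels' own word. All numbers are reads counted per gene, and levels are given as CPM, the counts scaled to a library total of 1000000 after normalisation.

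As background, skeletal muscle progenitors, or satellite cells, lie between a fibre and its basement membrane. Pax7 marks them at rest and while they divide. Once activated they make the transcription factor Myod1, divide, and then either return to rest or go on to Myog, sarcomere proteins and fusion. Notch signals hold the resting state, and growth factors from the fibre and its surroundings start the exit from it. Taking muscle apart into single cells itself switches on immediate early genes such as Fos and Egr1 within the time of the preparation.

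The libraries carried the markers of muscle progenitors. Pax7 had 124.8 and 100.2 CPM in SMP DKO and 261.9 and 270.5 CPM in SMP WT, against at most 0.393 CPM in any FAP library and 2.63 CPM in any Misc library. Myod1, Myf5 and Cdh15, which belong to the muscle lineage, were likewise at 122 CPM or more in each SMP library and at 7.3 CPM or less in every FAP and Misc library. The SMP DKO totals were 6124928 and 5826000 counts, and the SMP WT totals were 10659399 and 9669174 counts. Low genes were therefore measured less precisely in DKO.

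Some facts of these libraries touch the results that follow. SMP DKO replicate 2 stood apart: its log2 expression correlated at 0.950 with DKO replicate 1 and at 0.930 and 0.931 with the WT libraries. DKO replicate 1 correlated at 0.950 and 0.953 with the WT libraries, which correlated at 0.975 with each other. The Y-linked genes Ddx3y, Eif2s3y, Kdm5d and Uty had 0 counts in both DKO libraries, which allows up to 0.444 CPM at a limit of 3 counts per library. In the WT libraries Ddx3y had 168 and 140 CPM, and both WT libraries thus carried Y-linked RNA. Xist, made from the inactive X, had 845 and 460 CPM in DKO and 409 and 469 CPM in WT. Sex and genotype can thus not be told apart in SMP. On the X chromosome 28 of 495 genes tested were called higher in DKO and 90 lower, with a median log2 fold change of -0.17. Over all genes tested, 11.8% were called higher and 11.2% lower, with a median of 0.005. The DKO difference also moved with transcript length, as described beside the ribosomal protein genes.

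Across the 14179 genes tested, 1671 rose (11.8%) and 1586 fell (11.2%) in SMP DKO. These calls used edgeR's quasi-likelihood test on all 20 libraries, with a Benjamini-Hochberg adjusted p below 0.05. The share called in either direction was 23.0%, and 8.46% of all genes were called with a change of at least 2-fold. The call rests in part on the other populations, which supply most of the information on spread: with only the 4 SMP libraries in the fit, 924 of 12845 genes were called (7.19%), 445 higher (3.46%) and 479 lower (3.73%). Without DKO replicate 2, 954 genes were called higher and 1265 lower, and without WT replicate 1 the counts were 852 and 969. Nothing states that the replicates are separate animals beyond the word biological, so the p-values measure the spread between these libraries. In these bulk samples, a change in the number of cells of a type and a change in RNA per cell cannot be told apart.

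The calls separated into genes that moved in both DKO libraries and genes that moved in one. In 606 of the called genes (4.27% of those tested) each DKO library lay at least 1.5-fold above the higher WT library, and in 633 (4.46%) each lay at least 1.5-fold below the lower one. Of these, 331 higher genes (2.33%) and 335 lower genes (2.36%) were also called in the fit of the 4 SMP libraries alone. That requirement was chosen after the data had been seen, and the text calls these genes changed in both DKO libraries. In none of those 331 or 335 genes did one DKO library exceed the other by 3-fold or more. Before the second fit was required, DKO replicate 2 exceeded DKO replicate 1 to that degree in 32 of the 606 higher genes. Among the 633 lower genes it did so in 2, and DKO replicate 1 exceeded DKO replicate 2 in 1. The fit of the SMP libraries alone disfavours genes with uneven replicates, so this evenness follows in part from the selection. In contrast, 479 genes (3.38%) were at least 2-fold higher in DKO replicate 2 than in each of the other 3 libraries while DKO replicate 1 lay less than 1.5-fold above the higher WT library. The same rule found 24 genes (0.169%) for DKO replicate 1, 59 (0.416%) for WT replicate 1 and 67 (0.473%) for WT replicate 2. Low in 1 library alone were 251 genes (1.77%) for DKO replicate 1, against 79 (0.557%) for DKO replicate 2, 99 (0.698%) for WT replicate 1 and 62 (0.437%) for WT replicate 2.

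**Figure D1:**
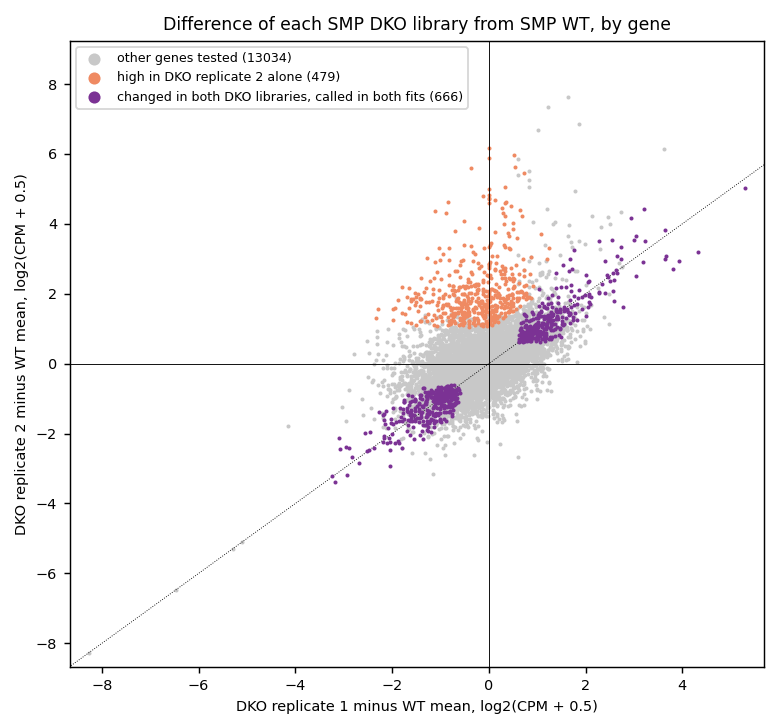
Each point is 1 gene, with the log2(CPM + 0.5) difference of DKO replicate 1 from the mean of the 2 WT libraries on the x axis and that of DKO replicate 2 on the y axis; the dotted line marks equal differences. The 666 genes changed in both DKO libraries lie along the line in both directions, which their selection favours. The 479 genes high in DKO replicate 2 alone lie above the x axis, with differences of replicate 1 on both sides of 0. The 4 lowest grey points are the Y-linked genes.

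The assumed targets were lower but present. Des, the muscle intermediate filament protein, had 75.4 and 54.2 CPM in DKO and 171 and 184 CPM in WT, a log2 fold change of -1.45 ± 0.19 (SE, n = 2 each; adjusted p = 1.6e-05). Syne1, which encodes nesprin 1, had 37.0 and 35.9 CPM in DKO and 79.5 and 69.2 CPM in WT, a log2 fold change of -1.03 ± 0.18 (adjusted p = 0.00032). With the trend of the fold changes over transcript length and GC content removed, the log2 fold change was -1.53 for Des (adjusted p = 1.4e-05) and -0.48 for Syne1 (adjusted p = 0.038). Both DKO libraries lay below both WT libraries for each gene. A count over the whole gene does not show which exons were lost, so these values check the labels only in part. Of 30 genes for intermediate filaments, the nuclear envelope and the dystrophin complex, 3 rose, 6 fell and 21 were not called, with a median log2 fold change of 0.08. Des and Syne1 are among the 6. Over all genes tested the shares were 11.8% higher and 11.2% lower, and this count is not read as a result about the list. Vim, the intermediate filament protein of mesenchymal and immature muscle cells, rose to 1693 and 2274 CPM in DKO, against 805 and 856 CPM in WT. Plec, a linker between filaments, and Lmna, of the nuclear lamina, rose as well, with log2 fold changes of 0.79 and 0.59. Dmd, the X-linked gene of dystrophin, fell to 156 and 117 CPM in DKO, against 250 and 273 CPM in WT, a log2 fold change of -0.93 that was -0.46 (adjusted p = 0.014) under the same correction. Its relative Utrn had a log2 fold change of -0.51 (adjusted p = 0.0062), which was -0.15 (adjusted p = 0.35) once the trend over length and GC was removed. Syne2, the other large nesprin, had 172 and 91.6 CPM in DKO and 167 and 113 CPM in WT and was not called (adjusted p = 0.83).

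The balance of progenitor markers differed between the groups. Pax7 (GRCm38.p6 chr4:139737059-139833530) averaged 112.5 ± 17.4 CPM in DKO and 266.2 ± 6.1 CPM in WT (SD, n = 2 each), a log2 fold change of -1.24 ± 0.34 (adjusted p = 0.017). Myod1 (chr7:46376474-46379092) had 338 and 353 CPM in DKO and 132 and 140 CPM in WT, a log2 fold change of 1.35 ± 0.40 (adjusted p = 0.025). Neither pair of groups overlapped, and both calls held in the fit of the SMP libraries alone (adjusted p = 0.0042 for Pax7 and 0.0026 for Myod1). Without DKO replicate 2 the adjusted p was 0.096 for Pax7 and 0.081 for Myod1, and with the trend over length and GC removed it was 0.018 for Pax7 and 0.056 for Myod1. Myf5, the other early myogenic factor, was at 152 and 122 CPM in DKO and 138 and 163 CPM in WT (log2 fold change -0.13 ± 0.40). Cdh15, the muscle cadherin, was at 192 and 163 CPM in DKO and 166 and 193 CPM in WT (-0.02 ± 0.45). Itga7 and Vcam1, surface proteins used to isolate progenitors, had log2 fold changes of 0.19 ± 0.25 and 0.20 ± 0.18. These 4 genes were not called, and their groups overlapped for Myf5 and Cdh15.

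Of 25 genes of satellite cell identity, 5 fell and 1 rose, with a median log2 fold change of -0.22 beside 0.005 over all genes tested. The shares called over all genes tested were 11.2% lower and 11.8% higher. The 5 were Pax7, Chodl, Chrdl2, Spry1 and Meox2, and each changed in both DKO libraries. Chodl, a lectin-like membrane protein, had 453 and 309 CPM in DKO and 998 and 945 CPM in WT. Spry1, which dampens receptor tyrosine kinase signals and is needed for return to rest, had 138 and 145 CPM in DKO and 289 and 295 CPM in WT. The member that rose was Cav1, of caveolae, with a log2 fold change of 0.47 ± 0.13 (adjusted p = 0.012). Of 23 genes of myogenic commitment, 7 rose and 1 fell, with a median of 0.55. Myod1 and Tnnt2, the troponin T of heart and immature muscle, were the members changed in both DKO libraries. Tnnt2 had 12.1 and 14.7 CPM in DKO and 0.486 and 1.31 CPM in WT. Myog, which drives differentiation, had 86.7 and 51.6 CPM in DKO and 18.0 and 68.0 CPM in WT, so its groups overlapped and it was not called (adjusted p = 0.38). Cdh2 fell, with a log2 fold change of -0.55. Without DKO replicate 2, 2 genes of this list were called higher and 2 lower.

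**Figure D2:**
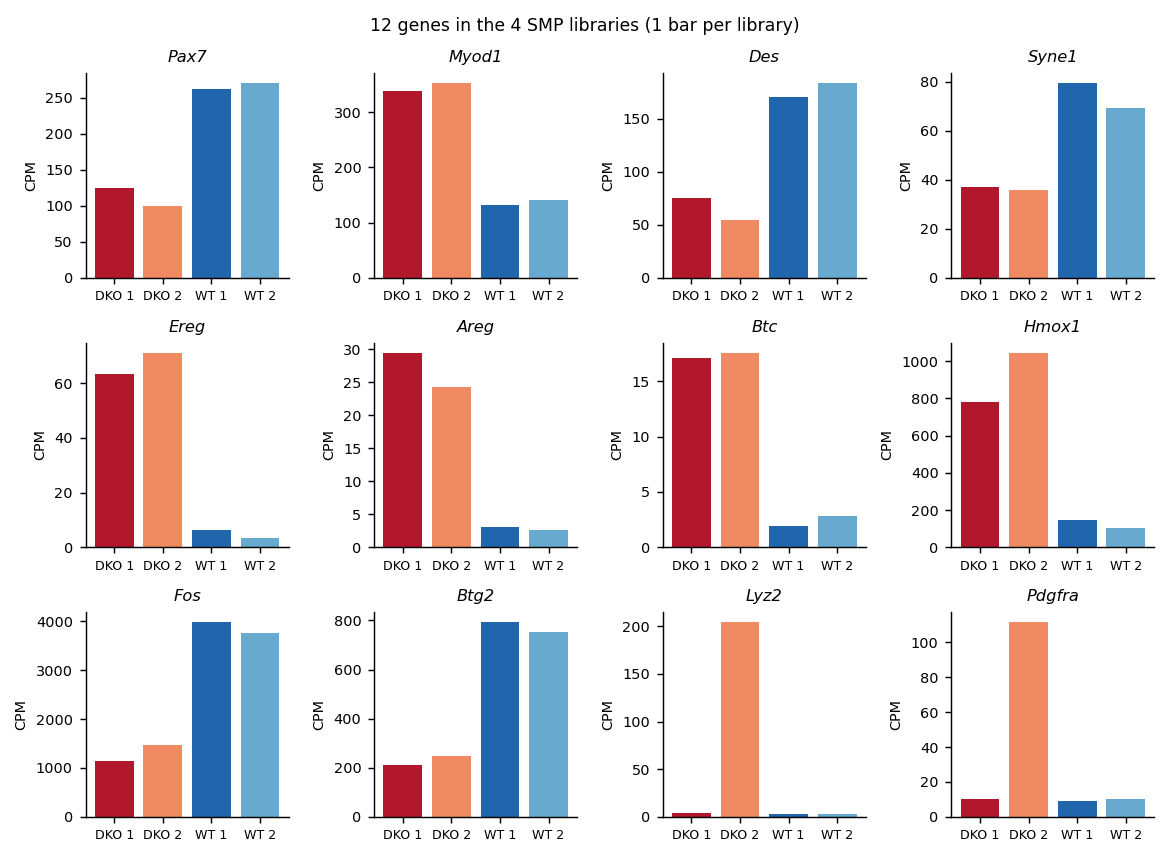
CPM of 12 genes, with 1 bar for each SMP library (DKO 1, DKO 2, WT 1 and WT 2) on a linear axis from 0 that differs between panels. Pax7, Des, Syne1, Fos and Btg2 are lower in both DKO libraries, Myod1, Ereg, Areg, Btc and Hmox1 are higher in both, and Lyz2 and Pdgfra are high in DKO 2 only.

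Neighbouring genes for 3 ligands of the EGF receptor rose together. Ereg, which encodes epiregulin (GRCm38.p6 chr5:91074617-91093649), had 63.6 and 71.3 CPM in DKO and 6.32 and 3.33 CPM in WT, a 13.9-fold difference (log2 3.79 ± 0.46, adjusted p = 3.2e-05). Areg, for amphiregulin (chr5:91139599-91148432), had 29.5 and 24.3 CPM in DKO and 3.08 and 2.54 CPM in WT, a 9.53-fold difference (log2 3.25 ± 0.49, adjusted p = 7.3e-05). Btc, for betacellulin (chr5:91357261-91402994), had 17.1 and 17.6 CPM in DKO and 1.95 and 2.81 CPM in WT, a 7.3-fold difference (log2 2.87 ± 0.43, adjusted p = 7.4e-05). For each gene both DKO libraries lay above both WT libraries, and DKO replicate 2 did not stand out. Within the table, the only other gene between them, Gm19619, was too low to test. Epgn, a further ligand gene of the family (chr5:91027517-91035212), lies just outside this span and was also too low to test. It had 0.395 and 0.296 CPM in DKO and 0.162 and 0.438 CPM in WT. The family was examined because these genes were high, so its count is a description. Of 11 ligand genes of the family in the table, 9 were tested, and none but these was called. Hbegf had 77.1 and 118 CPM in DKO and 117 and 117 CPM in WT. Among the receptors, Egfr had 328 and 283 CPM in DKO and 325 and 268 CPM in WT (log2 0.04 ± 0.14), and Erbb2 and Erbb3 were not called either. The rise of Ereg differed from the DKO difference in FAP by 3.39 on the log2 scale (adjusted p = 0.001) and from that in Misc by 3.37 (adjusted p = 0.0009). That of Btc differed by 3.17 from FAP and by 4.19 from Misc, and that of Areg by 3.38 from FAP but by 0.65 from Misc (adjusted p = 0.87).

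The start regions of Areg and Btc are shown because these neighbours moved together. The sequences are from the RefSeq table of GRCm38.p6 and run 5′ to 3′ on the gene's strand, from 250 bases before the annotated start to 50 after it. Areg lies on the plus strand at chr5:91139349-91139648 and Btc on the minus strand at chr5:91402945-91403244. Capitals mark matches on either strand to TGACG, the core of sites for cAMP response factors, to CAGCTG, an E-box of the kind myogenic factors use, and to TATAAA.
Areg: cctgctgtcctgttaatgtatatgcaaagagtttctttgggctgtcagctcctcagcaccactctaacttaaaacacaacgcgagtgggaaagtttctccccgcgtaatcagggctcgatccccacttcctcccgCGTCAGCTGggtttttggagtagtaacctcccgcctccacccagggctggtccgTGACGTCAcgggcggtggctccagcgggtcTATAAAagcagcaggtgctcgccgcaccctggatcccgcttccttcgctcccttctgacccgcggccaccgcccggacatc
Btc: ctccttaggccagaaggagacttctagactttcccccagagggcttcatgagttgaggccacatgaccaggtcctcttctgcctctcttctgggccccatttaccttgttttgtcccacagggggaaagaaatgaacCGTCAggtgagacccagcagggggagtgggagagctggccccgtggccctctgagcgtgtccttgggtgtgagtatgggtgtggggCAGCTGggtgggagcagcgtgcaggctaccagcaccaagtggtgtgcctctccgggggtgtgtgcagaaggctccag
Areg held 1 full palindrome TGACGTCA, which contains TGACG on both strands, a CGTCA that overlaps its CAGCTG, and 1 TATAAA. Btc held 1 CGTCA and 1 CAGCTG. Of 32851 start regions of this length, 20.8% held TGACG on either strand, 1.79% TGACGTCA, 16.3% CAGCTG and 13.6% TATAAA. A match is a description of the letters and not a binding site.

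Other genes that rose in both DKO libraries were picked with their values in view. Hmox1, the heme-degrading enzyme of oxidative stress, had 781 and 1047 CPM in DKO and 146 and 105 CPM in WT, a 7.3-fold difference (adjusted p = 0.00049). Hspb8, a small heat shock protein that takes part in clearing damaged filament proteins, had 173 and 165 CPM in DKO and 28.7 and 25.5 CPM in WT (log2 2.64 ± 0.19, adjusted p = 6.7e-09). Ahr, a ligand-activated transcription factor, had 132 and 119 CPM in DKO and 21.0 and 24.7 CPM in WT. These 3 genes lay well above both WT libraries in each DKO library. Tnfaip2, induced by tumour necrosis factor, had 72.3 and 111 CPM in DKO and 9.97 and 6.93 CPM in WT. S100a4, a calcium-binding protein of motile cells, had 65.2 and 94.4 CPM in DKO and 7.70 and 7.80 CPM in WT. Among the 30 tested genes for growth factors and receptors of progenitors, 4 rose, each in both DKO libraries, and 1 fell. Over all genes tested the shares were 11.8% higher and 11.2% lower, and this count is not read as a result about the list. Hgf, which activates satellite cells through Met, had 15.2 and 16.0 CPM in DKO and 3.00 and 1.84 CPM in WT. Pdgfb had 16.2 and 23.9 CPM in DKO and 4.13 and 3.24 CPM in WT, and the receptors Fgfr3 and Il6ra had log2 fold changes of 1.29 and 1.80. Igf1 was the member that fell, with 34.3 and 73.6 CPM in DKO and 96.2 and 98.6 CPM in WT.

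By the rule for named genes, the 12 highest fold changes were led by DKO replicate 2. Only Esm1 of those 12, an endothelial secreted proteoglycan with 12.7 and 7.85 CPM in DKO and 0.567 and 0.526 CPM in WT, was called without DKO replicate 2 or in the fit of the SMP libraries alone. The other 11 were Ctss, C1qb, C1qc, H2-Aa, Ifi202b, H2-Ab1, Cd74, H2-Eb1, Mrc1, Laptm5 and Lyz2, and 9 of the 12 were on the leukocyte list. Among genes changed in both DKO libraries with a mean of at least 5 CPM, the largest after the clone-named AI506816 and Esm1 were Mylpf, Dcx, Prune2, Srrm4, Tnnt2, Ereg, Tnfaip2, S100a4, Areg, Lgals3 and Car3. Dcx, an X-linked microtubule protein known from migrating neurons, had 14.8 and 6.67 CPM in DKO and 0.486 and 0.701 CPM in WT. Srrm4, a splicing factor known from neurons, had 24.9 and 12.3 CPM in DKO and 0.973 and 1.40 CPM in WT. Prune2 had 79.9 and 35.7 CPM in DKO and 3.97 and 3.07 CPM in WT. All 3 were higher in DKO replicate 1 than in DKO replicate 2.

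The 12 lowest fold changes under the same rule rested on both DKO libraries. All 12 were also called without DKO replicate 2, without DKO replicate 1, and in the fit of the SMP libraries alone. Cacna1d, the pore of an L-type calcium channel, had 5.67 and 9.04 CPM in DKO and 50.8 and 52.9 CPM in WT (log2 -2.82 ± 0.35, adjusted p = 9.3e-06). Cacna2d4, an accessory calcium channel subunit, had 0.922 and 0.741 CPM in DKO and 11.0 and 13.9 CPM in WT. Atp2b3, an X-linked calcium pump of the plasma membrane, had 1.32 and 1.33 CPM in DKO and 9.40 and 10.5 CPM in WT. Slc22a3, a transporter of organic cations, had 3.43 and 3.56 CPM in DKO and 40.0 and 33.9 CPM in WT (log2 -3.40 ± 0.44). Rgs4, which shortens G-protein signals, had 14.6 and 29.3 CPM in DKO and 138 and 121 CPM in WT. The cadherins Cdh4 and Fat3 had log2 fold changes of -2.92 and -2.56. Sgip1, Nap1l5, Zfp612, Otoa and Tac4, the gene of a tachykinin, made up the rest, between -3.10 and -2.29. Nppc, the gene of C-type natriuretic peptide, picked with its values in view, had 43.1 and 33.9 CPM in DKO and 161 and 161 CPM in WT.

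Immediate early genes were lower in DKO. Of 26 genes of the immediate early and dissociation response, 13 fell and none rose, with a median log2 fold change of -0.53. Of the 13, 9 changed in both DKO libraries. Over all genes tested, 11.2% were called lower and 11.8% higher, with a median of 0.005. Fos, a subunit of the AP-1 transcription factor, had 1132 and 1470 CPM in DKO and 3988 and 3772 CPM in WT (log2 -1.58 ± 0.16, adjusted p = 6.3e-07). Btg2, which slows division, had 213 and 248 CPM in DKO and 794 and 752 CPM in WT (log2 -1.74 ± 0.17, adjusted p = 5.8e-07). Egr1 had 2993 and 3372 CPM in DKO and 9348 and 7965 CPM in WT. For each of these genes both DKO libraries lay below both WT libraries. Fosb, Egr2, Nr4a1, Nr4a3, Jun and the chaperone partner Dnajb1 fell by 0.89 to 1.40 on the log2 scale. Hspa1a and Hspa1b, near-identical heat shock genes whose reads may be shared between them, had log2 fold changes of -0.59 and -0.56. With the trend over length and GC removed, 17 of the 26 were called lower and none higher. Without DKO replicate 1, 9 were called lower and 2 higher, with a median of -0.26, and without DKO replicate 2, 15 were called lower and none higher, with a median of -0.84. The time and temperature of tissue digestion are not given for either group, and their part in this difference was not tested.

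The start regions of Btg2 and Fos are shown as the pair with the smallest p in this list. Btg2 lies on the minus strand at chr1:134079106-134079405 and Fos on the plus strand at chr12:85473640-85473939, with the same source, length and capitals as above.
Btg2: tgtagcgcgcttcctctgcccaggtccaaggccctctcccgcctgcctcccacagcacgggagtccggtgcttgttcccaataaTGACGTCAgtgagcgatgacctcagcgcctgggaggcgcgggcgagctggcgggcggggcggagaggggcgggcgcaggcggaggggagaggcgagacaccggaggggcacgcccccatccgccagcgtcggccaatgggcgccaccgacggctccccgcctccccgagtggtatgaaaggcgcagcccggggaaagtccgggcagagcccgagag
Fos: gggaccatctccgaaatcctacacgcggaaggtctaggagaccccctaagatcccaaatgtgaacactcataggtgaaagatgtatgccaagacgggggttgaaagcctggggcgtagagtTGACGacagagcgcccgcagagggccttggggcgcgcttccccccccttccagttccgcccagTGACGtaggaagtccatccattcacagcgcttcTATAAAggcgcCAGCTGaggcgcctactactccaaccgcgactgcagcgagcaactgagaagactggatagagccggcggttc
Btg2 held 1 TGACGTCA, and Fos held 2 TGACG, 1 CAGCTG and 1 TATAAA. Of the 13 genes that fell, 12 had a start region in the table, and 7 of these held TGACG on either strand (Btg2, Dnajb1, Dusp1, Fos, Fosb, Nr4a1 and Nr4a3), beside 20.8% of all start regions. Members of the list that did not fall were not searched, so a link between TGACG and the fall was not tested.

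The shares called in 3 lists of signalling genes can be set beside the 11.8% higher and 11.2% lower of all genes tested, and the counts are not read as results about the lists. Of 22 Notch pathway genes, 5 fell and 1 rose. The target genes Heyl and Hes1 changed in both DKO libraries: Heyl had 167 and 147 CPM in DKO and 307 and 301 CPM in WT, and Hes1 had 108 and 106 CPM in DKO and 184 and 173 CPM in WT. Hey1, Dtx4 and the receptor Notch2 fell by 0.53 to 0.71 on the log2 scale, and Lfng, at 3.03 and 4.15 CPM in DKO and 2.27 and 1.23 CPM in WT, was called higher. Of 39 genes of TGF-beta, activin and BMP signalling, 5 rose and 6 fell. The ligand Tgfb2 had 140 and 159 CPM in DKO and 62.0 and 64.2 CPM in WT (log2 1.24 ± 0.15). The coreceptor Tgfbr3 had 151 and 166 CPM in DKO and 376 and 368 CPM in WT (log2 -1.23 ± 0.14). Skil, a repressor of SMAD transcription, fell by 0.96, and Tgfb1 rose by 0.88 on the log2 scale. Of 29 Wnt pathway genes 4 rose and 4 fell. The receptor Fzd4 had 62.6 and 56.6 CPM in DKO and 122 and 128 CPM in WT, and of the 4 that rose, Wnt2, Wnt11 and Sfrp4 were high in DKO replicate 2 alone.

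The direction of the matrix lists depended on the DKO library. Over all genes tested, 11.8% were called higher and 11.2% lower. Of 11 fibrillar collagen genes, 4 rose and 2 fell with all libraries, against 2 higher and 5 lower without DKO replicate 2 (median log2 fold change -1.12) and 5 higher and 2 lower without DKO replicate 1 (median 0.07). Col1a1 had 1156 and 2639 CPM in DKO and 2330 and 2663 CPM in WT, and Col1a2 had 1297 and 3298 CPM in DKO and 3017 and 3655 CPM in WT. Neither was called, and both were low in DKO replicate 1 only. Without DKO replicate 2, the log2 fold changes were -1.12 for Col1a1 (adjusted p = 0.0052) and -1.37 for Col1a2 (adjusted p = 0.00029). Col3a1 had 1935 and 3182 CPM in DKO and 2038 and 1937 CPM in WT and was not called. Col27a1 had 50.2 and 39.9 CPM in DKO and 17.0 and 11.9 CPM in WT, and Col11a1 had 81.7 and 104 CPM in DKO and 242 and 290 CPM in WT. Both of these changed in both DKO libraries, as did Col24a1, which fell by 1.43 on the log2 scale. Col5a1, Col5a2 and Col5a3 rose by 0.50 to 0.92. Of 21 other collagen genes 4 rose and 4 fell, against 1 higher and 7 lower without DKO replicate 2 (median -0.82) and 5 higher and 1 lower without DKO replicate 1. Col8a1 had 122 and 200 CPM in DKO and 43.5 and 43.1 CPM in WT. Col22a1, known from the junction of fibre and tendon, had 148 and 177 CPM in DKO and 426 and 477 CPM in WT.

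Other matrix lists depended on the library too. Their counts can be set beside the 11.8% higher and 11.2% lower of all genes tested. The basement membrane and integrin counts are not read as results about those lists. Of 25 basement membrane genes, 2 rose and 3 fell, against 7 higher and none lower without DKO replicate 1 and 1 higher and 2 lower without DKO replicate 2. The laminin chain gene Lamc3 had 7.51 and 6.67 CPM in DKO and 34.9 and 32.9 CPM in WT. Of 26 genes of matrix proteases and their inhibitors, 7 rose and 4 fell, against 11 higher and 2 lower without DKO replicate 1 and 2 higher and 3 lower without DKO replicate 2. The urokinase receptor gene Plaur had 100.9 and 114 CPM in DKO and 50.4 and 37.8 CPM in WT, and the inhibitor Timp3 had 740 and 873 CPM in DKO and 440 and 414 CPM in WT. Of 25 integrins and related receptors, 6 rose and 3 fell. Cd44, a hyaluronan receptor, had 462 and 445 CPM in DKO and 200.4 and 177 CPM in WT, and Sdc1 had 85.9 and 85.3 CPM in DKO and 37.4 and 35.3 CPM in WT. Of 31 matricellular genes 6 rose and 2 fell. This turned to 1 higher and 7 lower without DKO replicate 2 (median -0.53), and without DKO replicate 1 to 14 higher and none lower (median 0.66). Of 12 small leucine-rich proteoglycans 2 rose and 3 fell. None was higher and 7 were lower without DKO replicate 2 (median -1.02), and without DKO replicate 1, 4 were higher and 1 lower (median 0.44). In these last lists 9 matricellular genes and 2 proteoglycan genes were high in DKO replicate 2 alone.

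Of 36 cell cycle genes 17 rose, none fell and 19 were not called, with a median log2 fold change of 0.90. This median was 0.70 without DKO replicate 1 and 1.03 without DKO replicate 2. The cell cycle and glycolysis counts can be set beside the 11.8% higher and 11.2% lower of all genes tested. Mcm3, of the replication helicase, had 39.4 and 33.3 CPM in DKO and 14.6 and 15.4 CPM in WT. Many other members had an uneven WT pair: Top2a, which untangles DNA, had 118 and 89.2 CPM in DKO and 21.6 and 64.9 CPM in WT. Of 36 genes 3 were changed in both DKO libraries, namely Mcm3, Rrm2 and Cdkn2c. Without DKO replicate 1, 6 members were called higher and none lower, and with the SMP libraries alone 3 were higher and none lower. Of 21 glycolysis genes 12 rose and 1 fell, and without DKO replicate 2 the counts were 6 and 2. Pfkp had 146 and 144 CPM in DKO and 63.9 and 66.4 CPM in WT, and Hk2 had 126 and 176 CPM in DKO and 58.4 and 55.8 CPM in WT. Lpl, the lipase of blood lipids and a member of the adipocyte list, fell to 280 and 455 CPM in DKO, against 1111 and 1107 CPM in WT.

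Part of the ribosomal and mitochondrial genes rose, and transcript length moved with the difference. Over all genes tested, 11.8% were called higher and 11.2% lower. Of 77 cytosolic ribosomal protein genes 41 rose, none fell and 36 were not called, with a median log2 fold change of 0.52. The count was 22 without DKO replicate 1 and 24 with the SMP libraries alone. Rplp1 had 434 and 387 CPM in DKO and 178 and 199 CPM in WT. Of 79 genes of oxidative phosphorylation 31 rose, none fell and 48 were not called, with a median of 0.51. The count was 18 without DKO replicate 2 and 11 with the SMP libraries alone. Cox4i1 had 146 and 133 CPM in DKO and 77.6 and 91.4 CPM in WT. The median transcript of these lists measured 1059 and 994 bases, against 3463 over all genes tested. Over the 13666 genes with a length, the SMP log2 fold change correlated with transcript length at a Spearman rho of -0.23 and with GC content at 0.18, as a description across genes, which are not independent. The rho with length was -0.07 for FAP and -0.16 for Misc. With the trend over length and GC removed, 17 ribosomal genes were called higher and none lower (median 0.20). For oxidative phosphorylation 15 genes were then called higher and 1 lower (median 0.22). Under the same correction, 1744 of all 14179 genes tested were called higher and 1340 lower. Rplp1 then had a log2 fold change of 0.47 (adjusted p = 0.0074) and Cox4i1 one of 0.21 (adjusted p = 0.14). RNA integrity was not tested, since no label gives it.

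**Figure D3:**
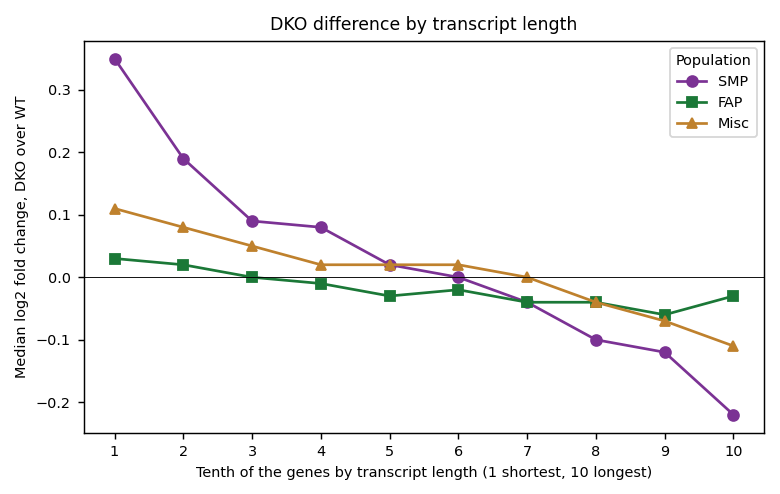
Median log2 fold change of DKO over WT for genes in 10 equal groups by transcript length, from the shortest on the left to the longest on the right, in SMP, FAP and Misc. In SMP the median ran from 0.35 in the shortest group to -0.22 in the longest, in FAP from 0.03 to -0.03, and in Misc from 0.11 to -0.11.

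Sarcomere genes rose, more in DKO replicate 2 than in DKO replicate 1. Of 34 genes of mature muscle fibre 21 rose and none fell, with a median log2 fold change of 2.51. Over all genes tested, 11.8% were called higher and 11.2% lower, with a median of 0.005. Acta1, skeletal actin, had 72.6 and 206 CPM in DKO and 10.3 and 14.8 CPM in WT. Tnnt3, a fast troponin, had 21.6 and 90.4 CPM in DKO and 5.43 and 8.15 CPM in WT. Both DKO libraries lay above both WT libraries, but the DKO libraries differed by more than 2-fold from each other. Mylpf, a fast myosin light chain, had 11.3 and 27.3 CPM in DKO and 1.22 and 0.877 CPM in WT and was called in both fits. Ttn, the giant sarcomere protein gene, was higher in DKO replicate 1, with 47.2 and 21.2 CPM in DKO and 6.08 and 6.93 CPM in WT. The list summed to 939 and 1573 CPM in DKO and 757 and 808 CPM in WT. Without DKO replicate 2, 13 members were called higher and none lower, and with the SMP libraries alone 6 were.

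DKO replicate 2 carried RNA of several other cell types. The 12 genes that stood out most in that library alone, with at least 5 CPM there, were Retnla, F13a1, Lyz2, Csf1r, Mrc1, Cd53, Ccl9, Gp49a, Laptm5, Itgam, C1qa and Emr1. Genes such as Csf1r, Mrc1 and Emr1, the gene of F4/80, mark macrophages. Lyz2 had 4.22 and 204 CPM in DKO and 3.16 and 2.45 CPM in WT. Retnla had 0 and 35.3 CPM in DKO and 0 CPM in both WT libraries. The leukocyte list of 29 genes summed to 47.4 and 1154 CPM in DKO and 34.3 and 25.9 CPM in WT, and 11 and 1 of its members were at 0 in DKO, against 14 and 16 in WT. Ptprc, the pan-leukocyte gene, had 0.132 and 14.4 CPM in DKO and 0.162 and 0 CPM in WT. Cd3e, Ms4a1 and 6 other members were too low to test.

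Stromal and vessel genes showed the same library. FAP markers summed to 3138 and 13076 CPM in DKO and 3977 and 4280 CPM in WT, and 11 of 20 members were high in DKO replicate 2 alone. Pdgfra, the defining FAP receptor, had 10.1 and 112 CPM in DKO and 9.32 and 10.4 CPM in WT. Col14a1 had 3.43 and 143 CPM in DKO and 8.19 and 5.52 CPM in WT, and Gsn had 1232 and 7133 CPM in DKO and 957.5 and 1086 CPM in WT. Endothelial markers summed to 271 and 1927 CPM in DKO and 621 and 467 CPM in WT, with 17 of 20 members high in DKO replicate 2 alone. Pecam1 had 15.5 and 159 CPM in DKO and 52.0 and 35.1 CPM in WT. Complement genes summed to 782 and 2042 CPM in DKO and 1064 and 1104 CPM in WT, led by C3 with 7.64 and 356 CPM in DKO and 17.6 and 11.2 CPM in WT. Of the 479 genes high in this library alone, 284 (59.3%) had a mean in the 8 FAP libraries at least 2-fold above the higher SMP WT library, beside 16.0% of all genes tested. The filter needed counts in more than a single library. Genes almost absent from the other SMP libraries thus passed it only through FAP or Misc libraries. The rule also favours genes low in SMP WT. The 59.3% is therefore partly fixed by the selection, and the 16.0% is not a like baseline. Whether this library held other cells or free RNA was not tested.

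Counts of called list members changed accordingly. They can be set beside the 11.8% higher and 11.2% lower of all genes tested. The pericyte and Schwann cell counts are not read as results about those lists. Of 21 tested leukocyte genes 18 rose with all libraries and none without DKO replicate 2. Of 20 FAP markers 8 rose and 1 fell with all libraries, and none rose and 7 fell without it. Of 20 endothelial markers 3 rose and 1 fell, against none and 1 without it. Complement genes rose in 7 of 15 and interferon and MHC class I genes in 9 of 27 cases, and 2 of the interferon list fell. None of either rose without DKO replicate 2, and 4 complement genes and 2 of the interferon list fell. Of 26 chemokine and cytokine genes 7 rose and 2 fell, against 1 higher and 3 lower without it. Pericyte and smooth muscle markers summed to 1446 and 1739 CPM in DKO and 1923 and 1906 CPM in WT, and 2 of 15 fell. Schwann cell markers summed to 318 and 430 CPM in DKO and 450 and 466 CPM in WT, and 1 of 15 rose. Of 11 tendon cell markers 6 fell and none rose, Scx and Mkx among them (Egr1 and Col11a1 belong to other lists as well), with Scx at 9.62 and 9.63 CPM in DKO and 19.9 and 19.1 CPM in WT. Of the erythroid list only Alas2 passed the filter, at 0.791 and 5.63 CPM in DKO and 0.243 and 0.526 CPM in WT.

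**Figure D4:**
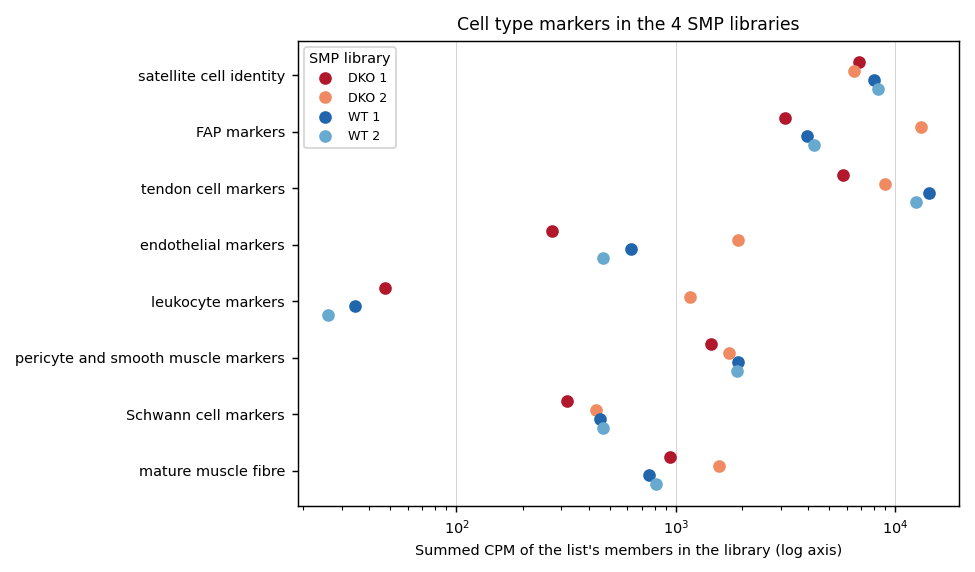
Summed CPM of the members of 8 marker lists (y axis) on a log x axis, with 1 point for each SMP library. For leukocyte markers DKO 2 is at 1154 CPM and the other 3 libraries are between 25.9 and 47.4 CPM. Satellite cell genes lie between 6467 and 8307 CPM in all 4, with both DKO libraries below both WT libraries. That list is not specific to progenitors: it also sums to 3177 to 4112 CPM in FAP and 2427 to 3224 CPM in Misc libraries (not drawn).

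**Figure D5:**
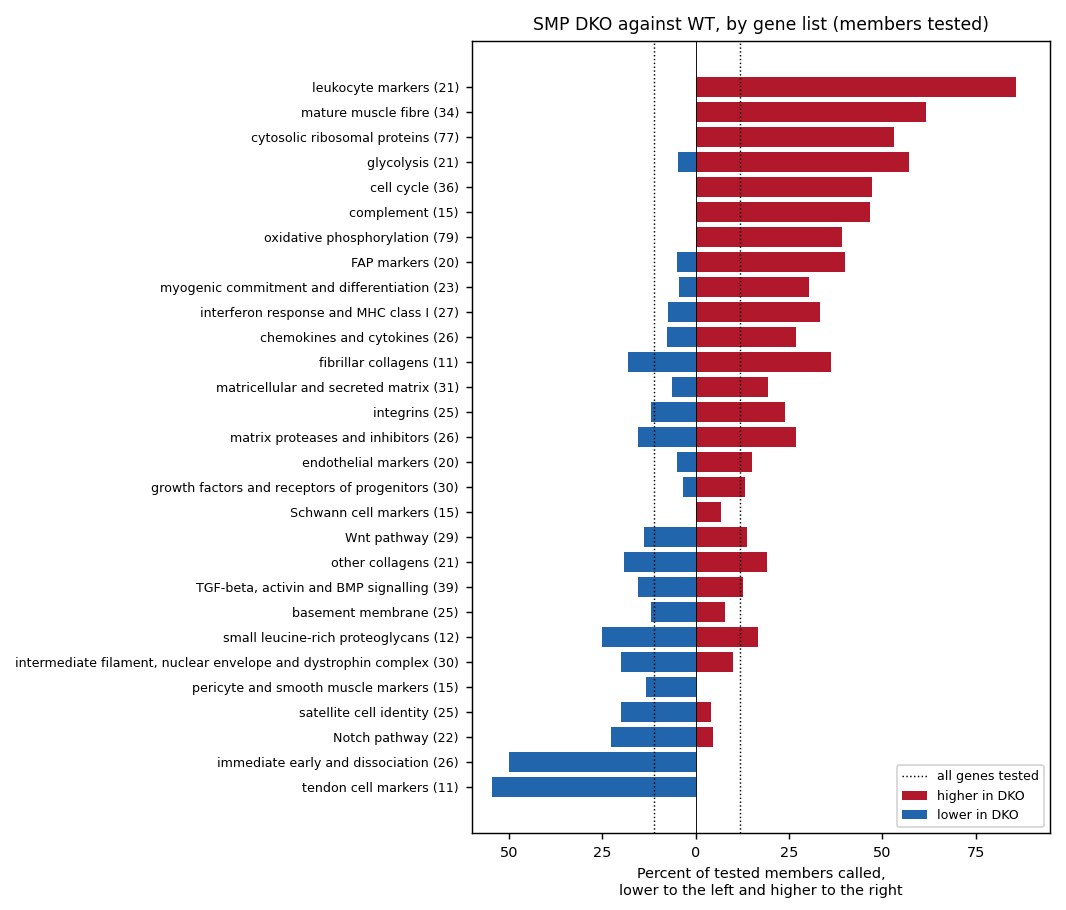
Share of the tested members of each list called higher (to the right) or lower (to the left) in SMP DKO, with the number tested after each name and dotted lines at 11.8% and 11.2%, the shares over all genes tested. The leukocyte list is farthest to the right with 18 of 21 higher, and the tendon cell and immediate early lists are farthest to the left with 6 of 11 and 13 of 26 lower; lists with fewer than 10 tested members are not drawn.

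The DKO difference in SMP was then set against that in FAP and in Misc by a test of the difference itself. It differed from FAP in 1465 genes (10.3%), of which 768 were more positive in SMP (5.42%) and 697 more negative (4.92%). It differed from Misc in 1268 genes (8.94%), 615 more positive (4.34%) and 653 more negative (4.61%). In 104 genes that differed from FAP, and in 153 that differed from Misc, the DKO difference was called in both populations with opposite signs. Rgs4 was one of them in both cases: it fell in SMP by 2.57 and rose in FAP by 2.18 and in Misc by 3.79 on the log2 scale. Col22a1 fell in SMP by 1.48 and rose in FAP by 1.75 and in Misc by 2.08. Postn, a matricellular protein of fibrosis, rose in Misc by 3.40, and in SMP it had 576 and 1065 CPM in DKO and 1015 and 1299 CPM in WT and was not called. Thbs4 rose in FAP by 3.26 and had a log2 fold change of 0.02 ± 0.23 in SMP. Des had log2 fold changes of -1.45 in SMP, -1.81 in FAP and -1.25 in Misc, and its differences of SMP from FAP and Misc were not called (adjusted p = 0.40 and 0.77). Syne1 had log2 fold changes of -1.03 in SMP, -0.31 in FAP, where it was not called (adjusted p = 0.11), and -0.69 in Misc. Its difference of SMP from FAP was called (adjusted p = 0.037) and that from Misc was not (adjusted p = 0.36). These values for Syne1 are without the correction for transcript length and GC, under which its SMP log2 fold change was -0.48. The clone-named gene AI506816 had 73.7 and 60.3 CPM in SMP DKO and 1.46 and 1.31 CPM in SMP WT, a log2 fold change of 5.58, beside 5.49 in FAP and 4.39 in Misc. Of the 331 genes that rose in both SMP DKO libraries, 87 (26.3%) were also called higher in FAP and 123 (37.2%) in Misc. Of the 335 that fell, 71 (21.2%) were also called lower in FAP and 119 (35.5%) in Misc. Over all genes tested, 5.58% were called higher and 5.14% lower in FAP, and 9.15% higher and 9.55% lower in Misc.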

How the data were processed

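RNA-seq was run on total RNA purified on spin columns, per the labels' protocols. The authors deposited raw counts per gene, 24393 genes by 20 libraries, mapped to mm10 with RefSeq annotation by OSA, per the series design text. The submitters' processing notes also list DESeq2, with no version. Neither a counting tool nor a strand setting is given in the sources used here, so overlapping and antisense genes cannot be told apart. No column was left out.

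Of the identifiers, 24312 matched RefSeq for GRCm38.p6, and 52 blank or date-altered symbols were restored from it. The edgeR filter (minimum count 10, minimum total 15, by group) kept 14179 genes, TMM scaled the totals, and a robust quasi-likelihood model of 6 groups was fitted in edgeR 4.0.16 (R 4.3.3). Adjusted p is Benjamini-Hochberg over all genes tested, and the SE was derived from the log2 fold change and the F statistic. The median of all genes was 0.005 after TMM and 0.029 with DESeq2 size factors. Fold limits for single libraries used CPM + 0.5. Transcript lengths and GC content came from GENCODE M21, longest transcript.

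The genes, the 31 lists and the tests were chosen with earlier results of these data known. Named genes were the 12 called each way with the largest fold change, at least 5 CPM on average and groups that did not overlap, 12 high in DKO replicate 2 alone and 4 for each other library, 5 each way per difference between populations, up to 4 called members per list, and a set kept whatever its result; predicted genes were left out of the first. Not all are printed. Alternatives were other scaling, DESeq2 1.42.0, no filter, a replicate block, thinned counts, each library left out (with the filter applied anew, so list members tested could differ), the SMP libraries alone, other thresholds and the length and GC correction. SMP depth was 5826000 to 10659399 counts per library, and limits from a count of 0 cover counting error only.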

Additional observations from a re-analysis of the deposited data

Results flagged for a closer look

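In 20 results the DKO difference in SMP differed from that in FAP or Misc by the test of the difference itself. The test was edgeR's quasi-likelihood test, with a Benjamini-Hochberg adjusted p below 0.05. These results are the 5 largest of each direction against each population, among genes averaging at least 5 CPM over the libraries compared. Against FAP, the log2 difference was -4.75 for Rgs4 (adjusted p = 1.6e-05), -3.36 for Dclk3, -3.28 for Rhoh, -3.25 for Kif1a and -3.24 for Thbs4 (adjusted p = 1.7e-07). Dclk3, a kinase gene, had 17.7 and 7.11 CPM in SMP DKO and 53.9 and 36.8 CPM in SMP WT, and Rhoh had 16.9 and 15.6 CPM in SMP DKO and 46.6 and 52.5 CPM in SMP WT. Kif1a, a motor protein gene, rose in FAP by 2.32 and fell in SMP by 0.93 on the log2 scale.

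Against Misc, the log2 difference was -6.36 for Rgs4 (adjusted p = 4.4e-07), -5.22 for Serinc2, -4.31 for Mgam, -3.89 for Postn and -3.55 for Col22a1 (adjusted p = 0.00016). Serinc2 had 24.8 and 21.5 CPM in SMP DKO and 16.9 and 23.6 CPM in SMP WT, and rose in Misc by 5.42 on the log2 scale.

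Among genes at or above the 5 CPM limit, the largest positive differences were mostly carried by SMP DKO replicate 2. Against FAP they were 6.27 for Wnt10b, 5.67 for 1700019D03Rik, 4.61 for Cmah, 4.49 for Il1r2 and 4.37 for Pik3r5. Wnt10b, 1700019D03Rik and Cmah had 0 CPM in SMP DKO replicate 1 and 1.19, 1.04 and 4.89 CPM in replicate 2, with 0 to 0.243 CPM in SMP WT, so these fitted values depend on the prior count. Il1r2 had 0.264 and 3.56 CPM in SMP DKO and 0.243 and 0 CPM in SMP WT. Pik3r5, a phosphoinositide kinase subunit gene, had 5.67 and 13.8 CPM in SMP DKO and 0.162 and 0.175 CPM in SMP WT (adjusted p = 0.0018 for the difference). Against Misc they were 4.81 for Ces1d, 4.65 for C3, 4.43 for Kcp, 4.38 for Ifi205 and 4.37 for Dpep1. Ces1d, at 0.264 and 2.22 CPM in SMP DKO and 0.0811 and 0.351 CPM in SMP WT, was not called in SMP itself. Dpep1 had 0.922 and 63.3 CPM in SMP DKO and 3.40 and 1.93 CPM in SMP WT. Ifi205 had 3.03 and 64.0 CPM in SMP DKO and 2.35 and 2.54 CPM in SMP WT. Kcp had 1.05 and 6.22 CPM in SMP DKO and 0.405 and 0.351 CPM in SMP WT. Some genes below the limit also had large called differences from FAP. Those of Myom2 (5.27) and Dcx (4.57) were in genes changed in both SMP DKO libraries. That of C5ar1 (9.57) was in a gene at 0.264 and 3.85 CPM in SMP DKO. Not all genes below the limit were examined in this way.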

How the results depend on the processing

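The count of genes called in SMP, 3257 with all libraries, ran from 1821 to 2830 when 1 SMP library was left out; the lowest was without WT replicate 1. It was 924 with the 4 SMP libraries alone and 1477 at an adjusted p below 0.01. The replicate block gave 3200 calls over all libraries and 129 within SMP alone. The main fit did not pair libraries by replicate number. In SMP the deviations of DKO and WT replicate 1 from their group means correlated at -0.048. With 2 libraries a group, each deviation rests on the difference of a single pair. This value thus cannot show whether the numbers mark a shared preparation. DESeq2 gave 3347 calls, DESeq2 size factors 3249, no filter 2980, thinned counts 2269 and the length and GC correction 3084, of which 2408 were shared.

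Differences from FAP numbered 1465, with 777 to 1783 when 1 library was left out and 900 with thinned counts. Differences from Misc numbered 1268, with 782 to 1583 when 1 library was left out and 783 with thinned counts. Genes changed in both DKO libraries numbered 1239 before the second fit was required, 688 with calls of the SMP fit, 666 with calls of both fits, and 405 with stricter fold limits. Genes high in DKO replicate 2 alone numbered 479, and 231 with stricter limits. Called list members numbered 301, from 137 to 304 when 1 library was left out, 199 without WT replicate 2, 121 with SMP alone and 139 when each DKO library had to lie 1.5-fold beyond WT.

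Of 173 named genes called, 7 changed sign without DKO replicate 2, none at an adjusted p below 0.05: Csf1r (-1.44; range over left-out libraries to 7.59), Cmah (-3.51, to 7.54), C3 (-0.93, to 4.61), Dpep1 (-1.54, to 4.54), Lum (-0.21, to 2.74), Plvap (-0.41, to 2.66) and Ly6c1 (-1.06, to 3.16). Without that library 62 others were no longer called, against 21 without DKO replicate 1, 64 without WT replicate 1 and 56 without WT replicate 2. Beyond the construction of each alternative, the cause was not tested. With 2 libraries a group, a missed threshold says little about stability, and low genes are limited by the smaller DKO totals.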

Other observations

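Genes that stood out in the other libraries were few and low. With at least 5 CPM there, 11 genes were high in SMP DKO replicate 1 alone, among them Pask, Cdc45 and Melk. Cdc45, which loads the replication helicase, had 13.4 and 4.89 CPM in SMP DKO and 2.68 and 4.03 CPM in SMP WT. In WT replicate 1 there were 9 such genes, led by Rab6b, Dnah7b, Sh3gl2 and Hhip, and in WT replicate 2 there were 16, led by Adamts13, Cgn, Xlr3a and Rgs11.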
